A study of Mus musculus with 3 samples.

Results

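The zinc genes of the mouse were described in embryonic sensory neurons: the zinc exporters (ZnT proteins, Slc30a genes), the zinc importers (ZIP proteins, Slc39a genes), the vesicular zinc transporter gene Tmem163, the metallothioneins Mt1 to Mt4, and Mtf1. Members were selected on their symbols among the protein-coding genes, which gave 30 of 41388 deposited genes: 10 ZnT genes, 14 ZIP genes, 4 metallothioneins, Tmem163 and Mtf1. Tmem163 was chosen by its variation between libraries, the largest seen in these data, so that variation is given below as a description without a test. The question asked of the other members was whether they varied in the same way. The pseudogene Slc39a1-ps had 0 counts in all 3 libraries and was left out.

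RNA came from dorsal root ganglia between T11 and S1 of the spine, taken from C57BL/6 embryos at 14.5 days post coitum, dissociated and sorted for EGFP fluorescence from a Ret-EGFP reporter. The genotype is written Tg(Ret-EGFP)SJ, while the series text describes heterozygotes with a knock-in at the Ret locus. Library A pooled the 100 ganglia of 3 male and 2 female embryos, library B the 100 of 2 males and 4 females, and library D the 80 of 3 males and 1 female. The 3 libraries form 1 group with no control, so each describes a pool of animals, and nothing separates differences between pools from those of sorting or amplification.

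Total counts were 20181558, 20355302 and 29061086 in A, B and D. All 8 sensory neuron markers exceeded 10 TPM (a count divided by gene length and scaled to the library) on average, led by Tubb3 and Stmn2, with sums of 29707, 24419 and 26647 TPM. Markers of mesenchyme (highest Col1a1 and Col1a2) summed to 19.2, 70.6 and 19.3 TPM, of endothelium (Pecam1 and Cdh5) to 4.52, 3.89 and 2.98 TPM and of macrophages (C1qb and C1qa) to 17.1, 11.4 and 6.08 TPM. Those of melanocytes (Mlana and Pmel) summed to 0.484, 1.18 and 0.316 TPM, with Tyr at 0 in all libraries. Erythroid markers summed to 84.8, 74.8 and 304 TPM and were highest in D. Sums of cell cycle genes (45.7, 54.6 and 42.7 TPM, led by Pcna and Mcm2) lay closer together. Sums of nociceptor genes (824, 923 and 751 TPM, P2rx3 and Calca) did too. So did those of mechanoreceptor and proprioceptor genes (218, 238 and 253 TPM, Pvalb and Etv1), although single genes of these lists differed more. Immediate early genes, led by Fos and Jun, were highest in B (104, 193 and 126 TPM). On the TPM scale the median tested gene was 0.33 log2 lower in D than in A and B. Differences between libraries were therefore taken on log2 CPM (counts scaled to the library total) after TMM normalisation, where that median was -0.005. On that scale Prdm12 and Tac1, of 7 nociceptor genes, were 2-fold or more above the mean of A and B in D. So was Maf, of 8 mechanoreceptor and proprioceptor genes (4.45% of all tested genes). Prdm12, Maf and Pvalb were 2-fold or more below the mean of B and D in A (2.85%). Of 6 cell cycle genes, Mki67 was 2-fold or more above in A (3.18%) and Mcm2 2-fold or more below in D (6.78%).

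Cells hold almost all of their zinc bound to proteins or inside organelles. ZnT proteins carry zinc out of the cytosol, into vesicles or out of the cell, and ZIP proteins carry it into the cytosol. Metallothioneins are small cysteine-rich proteins that bind zinc and copper, and MTF1 is the zinc-sensing transcription factor that binds metal response elements in the promoters of Mt1, Mt2 and Slc30a1. TMEM163 belongs to the cation diffusion facilitators, as ZnT proteins do. It was first described in synaptic vesicles of the rat brain, moves zinc, and has been found in complex with mucolipin 1 and with ATP-gated P2X receptors, of which P2X3 is typical of nociceptors.

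Of the 30 members, 20 averaged 1 TPM or more over the libraries (66.7%, against 55.5% of all 21397 protein-coding genes). There were 10 members at 10 TPM or more, 10 between 1 and 10 TPM, and 10 below 1 TPM, each of the last with at most 93 counts in any library. By mean level the order began with Mt3, Tmem163, Slc39a6, Slc30a6, Slc39a10, Slc39a3, Slc39a9, Slc39a13, Slc39a11 and Slc30a9. Library A carries the place of Tmem163 in that order: it exceeded Slc39a6 in 1 of 3 libraries, and its mean log2 TPM ratio to Slc39a6 was -0.55. Among 19 pairs of neighbours in that order with enough counts, the mean log2 ratio exceeded its SD in 9, and in the other 10 the neighbours did not differ beyond their spread over libraries. Enough counts for the fit of variation between libraries were found in 21 members, Tmem163 among them, and the 20 others were tested. The remaining 9 had too few counts.

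**Figure D1:**
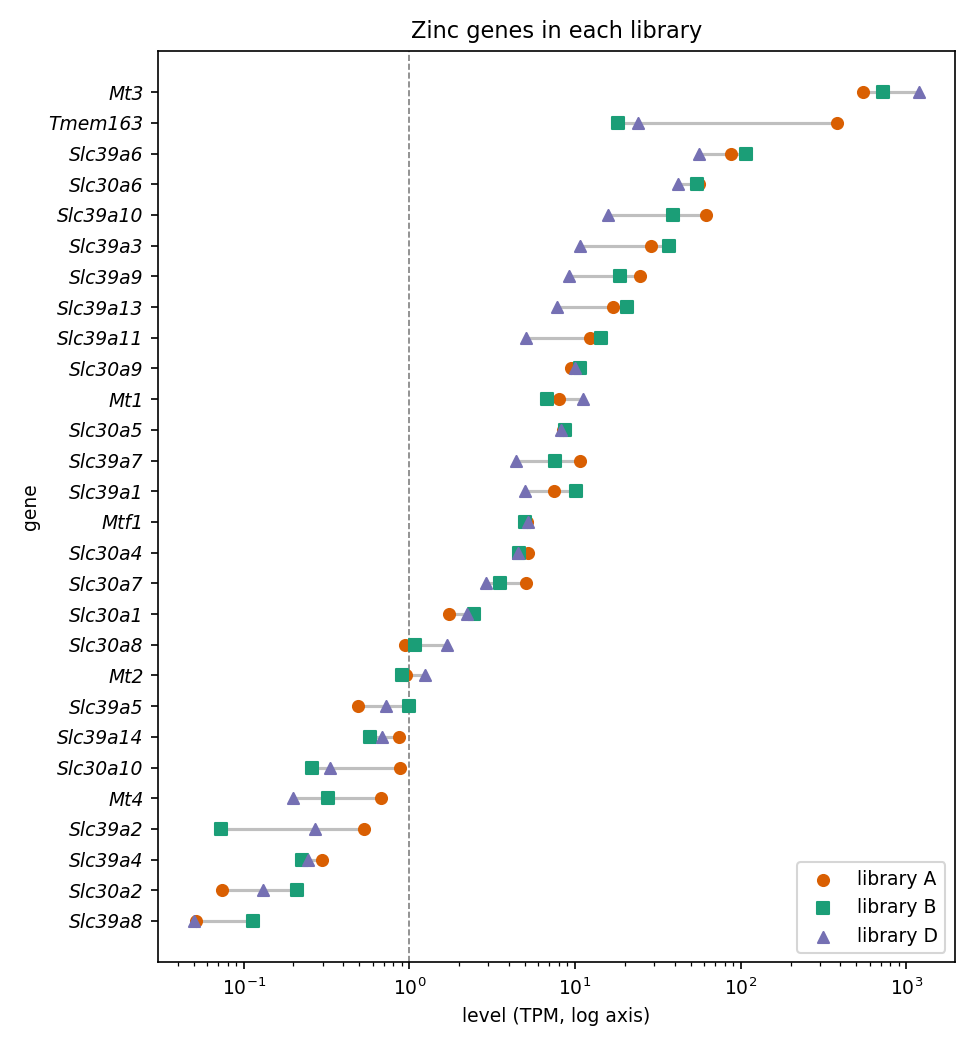
Level of each zinc gene in libraries A (circles), B (squares) and D (triangles), in TPM on a log axis, ordered by mean, with the dashed line at 1 TPM. Slc30a3 and Slc39a12, each with 1 count in a single library, are not drawn. Tmem163 has the widest spread among genes above 1 TPM, with A at 384 TPM and B and D at 18.3 and 24.0 TPM.

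Tmem163 lies on the minus strand of chromosome 1 (chr1:127486546-127679548, GRCm38.p2). It had 12491, 624 and 1334 counts in A, B and D, or 384, 18.3 and 24.0 TPM. Library A alone was high, and B and D lay close together. On normalised log2 CPM, A exceeded the mean of B and D by 4.02, a 16.2-fold difference, and none of the 13530 tested genes had a larger difference in A. Tmem163 gave 47.2% of all counts of the 30 members in A, but 3.99% in B and 6.52% in D. Without it, the summed TPM of the members was 906, 1078 and 1390 in A, B and D. Its exons share 152 bases with the opposite-strand Mgat5, a glycosyltransferase gene with 411, 405 and 483 counts, whose difference in A was 0.14.

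No other tested zinc gene differed in A by more than 1.31 log2. In an edgeR goodness-of-fit test of variation between libraries, 24 of 13530 genes passed an adjusted p of 0.05 (0.177%), and 0 of the 20 other tested members did. Without library B 2 genes passed, without A 7 and without D 27, and 0 of the other members in each case. At an unadjusted p under 0.05 there were 2 of the 20 members (Slc39a10 and Mt3) and 6.13% of all tested genes. DESeq2 marked 4 genes as dispersion outliers, none of them among these 20. The lowest adjusted p among them was 0.678, for Slc39a10. The test asks whether a gene spread more between libraries than genes of its level, with the dispersion estimated from the same libraries. A p above the threshold does not show that these genes were equal between libraries. The median gene had a biological coefficient of variation of 30.2%.

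Library A held 2 of the 20 other members at 2-fold or more above the mean of B and D (3.18% of all tested genes), namely Slc30a10 and Slc39a10, and 0 at 2-fold or more below it (2.85%). The first count was 1 without library D and 1 with a length or a GC trend removed, and the second was 2 without library B. Slc30a10, which exports manganese, had 39, 12 and 25 counts in A, B and D, or 0.881, 0.258 and 0.331 TPM. It was high in A by 1.31 log2 and low in B by 1.12 log2, at counts where few molecules were sampled. Its exons share 533 bases with Gm2061, an opposite-strand lincRNA of 1 to 6 counts. In the plane of both contrasts (A minus the mean of B and D, and B minus D) Slc30a10 was the member nearest to Tmem163, at a distance of 2.71 log2, and 55 tested genes were nearer. The median difference in A was 0.04 over the 20 members and 0.03 over all tested genes. Highest in A were 7 of the 20 members and 34.3% of all tested genes.

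The 5 tested genes nearest to Tmem163 in that plane were all annotated as non-coding. Meg3, a maternally expressed imprinted RNA, was the nearest, with 1056, 106 and 323 counts in A, B and D. It was followed by the antisense gene Gm20642 (110, 20 and 26 counts), 9830144P21Rik (197, 37 and 65 counts), Gm16907 (175, 30 and 71 counts) and B830012L14Rik (373, 38 and 197 counts). Each was higher in A than in both other libraries. Meg3 (chr12:109541001-109571726) and B830012L14Rik (chr12:109695586-109702587) lie in the same stretch of chromosome 12 (GRCm38.p2). Being nearest in this plane is how they were selected, and says nothing of a shared function.

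**Figure D2:**
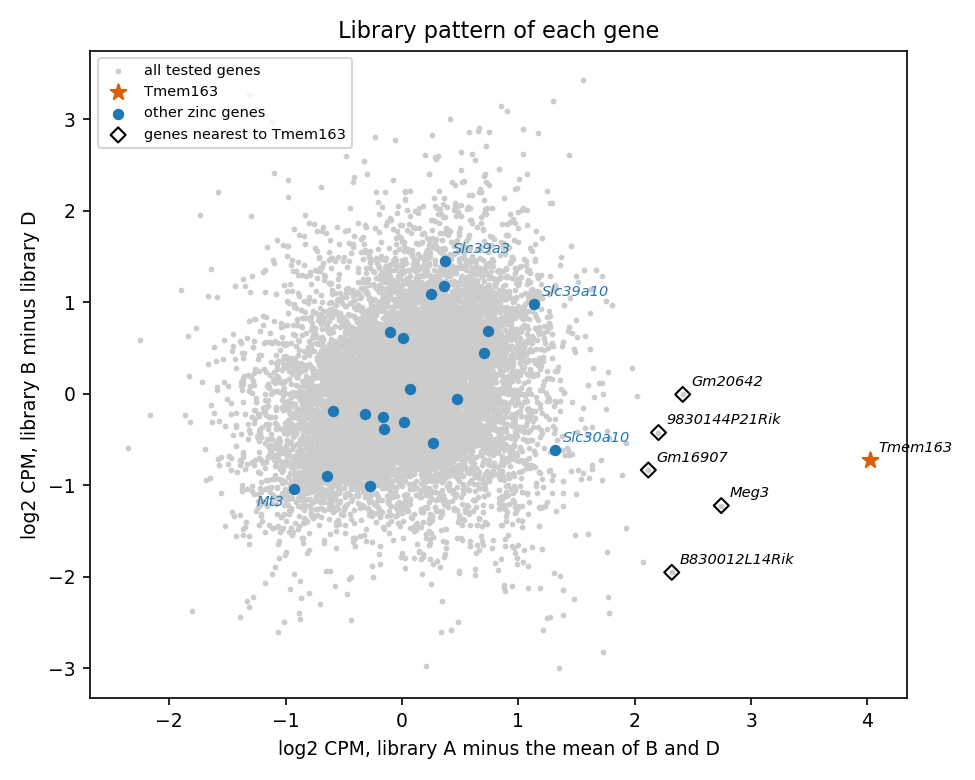
Each point is a tested gene, placed by its log2 CPM in A minus the mean of B and D (horizontal) and its log2 CPM in B minus D (vertical). Tmem163 (star) stands at 4.02, the other zinc genes (blue) lie within the grey cloud with Slc30a10 at 1.31 and Slc39a10 at 1.13, and diamonds mark the 5 genes nearest to Tmem163.

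Around Tmem163, 13 other protein-coding genes lie within 1 Mb, of which 9 had enough counts to be tested. None of the 9 was called by the edgeR fit (lowest adjusted p 0.823, with 0.177% of all tested genes called), and their differences in A ran from -0.39 to 1.12. Zranb3, which encodes a DNA annealing helicase, was the only one of the 9 at 2-fold or more in A (3.18% of all tested genes), with 252, 172 and 108 counts in A, B and D. It was highest in A and lowest in D. Ccnt2, a cyclin of the elongation factor P-TEFb, had differences of 0.71 in A, -0.40 in B and -0.31 in D. Rab3gap1, a regulator of Rab3 and Rab18 (1408, 889 and 1056 counts), had 0.78, -0.30 and -0.48. Nckap5, the protein-coding neighbour beyond Mgat5, had 84, 62 and 47 counts and a difference of 0.86 in A. R3hdm1, Ubxn4, Dars and Mcm6 had differences of 0.46, 0.02, 0.01 and -0.39 in A, and Mcm6 was highest in B. The 4 untested neighbours, Acmsd, Map3k19, Lct and Cxcr4, had at most 15 counts in any library.

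**Figure D3:**
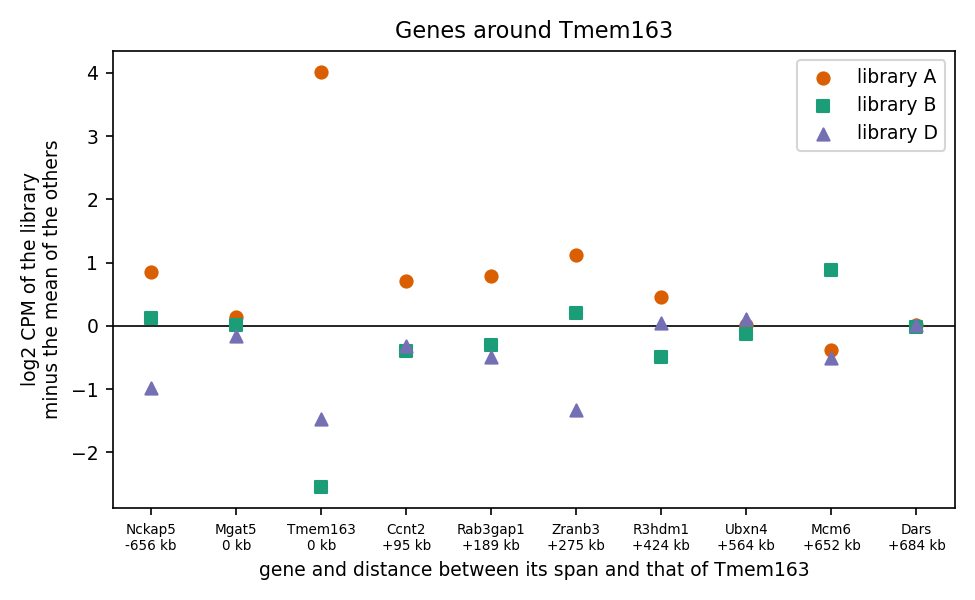
Log2 CPM of each library minus the mean of the other libraries for Tmem163 and the 9 tested protein-coding genes within 1 Mb, in chromosome order with the distance between gene spans in kb. Tmem163 reaches 4.02 in A (circles), while the others stay between -0.39 and 1.12 in that library. In D (triangles) Zranb3 is at -1.33 and Nckap5 at -0.98.

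Ngfr, listed here with glial markers although sensory neurons also express this neurotrophin receptor, was also highest in A. It had 46646, 15280 and 20221 counts in A, B and D, a difference of 1.65 in A that did not pass the edgeR fit (adjusted p 0.224). The 8 markers of glia and Schwann precursors summed to 2038 TPM in A, 961 TPM in B and 923 TPM in D, mostly through Ngfr. Sox10, the defining transcription factor of this lineage, was lowest in A, at 4.67 TPM in A, 11.1 TPM in B and 6.86 TPM in D. Fabp7 was also lowest in A, with 200 TPM, against 313 TPM in B and 418 TPM in D. In bulk RNA of sorted cells, more cells with a transcript and more transcript per cell cannot be told apart, and the part of these markers in the level of Tmem163 was not tested.

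Among the ZnT exporters, Slc30a6 led. Its protein lacks transport activity of its own and pairs with ZnT5 in the early secretory pathway. Slc30a6 stood at 56.3, 54.4 and 41.6 TPM in A, B and D, and its normalised log2 CPM differed by no more than 0.08 in any library from the mean of the others. Slc30a9, whose product exports zinc from mitochondria, stood at 9.42, 10.8 and 9.98 TPM (10.1 ± 0.69, SD, n = 3). Slc30a5, the partner of Slc30a6, averaged 8.46 ± 0.22 TPM. The log2 TPM ratio of Slc30a5 to Slc30a6 was -2.73, -2.65 and -2.34 in A, B and D, so the partner that transports had 5.95-fold less transcript than the one that does not.

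Slc30a4 (4.77 ± 0.37 TPM), of endosomes and lysosomes, and Slc30a7 (3.83 ± 1.09 TPM), of the Golgi apparatus, followed. Slc30a5 exceeded Slc30a7 by 1.18 ± 0.38 on the log2 TPM scale, in 3 of 3 libraries, and had the lower CPM (-0.32 on the log2 scale), Slc30a7 being the longer gene. Slc30a1, the plasma membrane exporter and a target of MTF1, averaged 2.13 ± 0.36 TPM, with 69, 102 and 151 counts. Its exons share 468 bases with the opposite-strand 1700034H15Rik (33, 37 and 95 counts), so part of these counts may belong to that gene. Slc30a8, known from insulin granules of pancreatic beta cells, averaged 1.24 ± 0.40 TPM. Slc30a2, of mammary secretory vesicles, had 2, 6 and 6 counts. Slc30a3, the transporter that loads zinc into glutamatergic synaptic vesicles of the forebrain, had 0, 1 and 0 counts in A, B and D. A count of 0 allows up to 3 counts, or 0.140 TPM in A and 0.0818 TPM in D. In the edgeR fit 0 of 8 tested ZnT genes passed, and their median differences were -0.07, -0.18 and 0.25 in A, B and D.

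The ZIP importers were led by Slc39a6 and Slc39a10, whose proteins form a heteromer at the plasma membrane. Slc39a6 stood at 88.0 TPM in A, 107 TPM in B and 55.9 TPM in D. Slc39a10 stood at 61.6, 39.2 and 15.8 TPM, with 2845, 1902 and 1244 counts although D was the deepest library. It was thus highest in A and lowest in D, by 1.13 and -1.30 log2 (edgeR unadjusted p 0.0196, adjusted p 0.678). The log2 TPM ratio of Slc39a6 to Slc39a10 averaged 1.27 ± 0.68 (SD, n = 3) and was 0.52, 1.45 and 1.83 in A, B and D. On the CPM scale it averaged 0.68 ± 0.68 and was -0.07, 0.87 and 1.24, so its sign in A depends on the scale.

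Slc39a3, a plasma membrane importer, had 28.9 TPM in A, 36.7 TPM in B and 10.7 TPM in D. Slc39a9, of the Golgi apparatus, had 24.8, 18.7 and 9.25 TPM. Slc39a13, of the early secretory pathway, had 17.0, 20.7 and 7.75 TPM. Each of the 3 was lowest in D. Slc39a11, also of the Golgi apparatus, had 12.4, 14.4 and 5.04 TPM and was low in D as well. Slc39a7, which releases zinc from the endoplasmic reticulum (7.55 ± 3.13 TPM), and Slc39a1 of the plasma membrane (7.52 ± 2.55 TPM) came next. The log2 TPM ratio of Slc39a7 to Slc39a13 was -0.98 ± 0.42 (SD, n = 3). Slc39a13 shares 215 exon bases with the far more abundant Psmc3 (13119, 13088 and 20724 counts), and Slc39a9 shares 127 with Erh (300, 339 and 753 counts). Whether the counting used strand is not given in the sources used here, so part of these counts may belong to the neighbour. Slc39a7 shares 2078 bases with the same-strand Gm20427, which had 0 counts, and how reads in shared bases were assigned is not given there either.

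Most ZIP genes had their lowest level in library D. Of 9 tested ZIP genes, 8 were lowest in D (38.8% of all tested genes), all but Slc39a14, and their median difference in D was -0.88. Slc39a10, Slc39a3 and Slc39a11 were 2-fold or more below the mean of A and B, the only 3 such among the 20 members (6.78% of all tested genes); of ZIP genes there were 5 with library totals only and 2 with the length trend removed. Of 8 tested ZnT genes, 1 was lowest in D and 5 were highest in D (37% of all tested genes). On the TPM scale, before the shift of the median in D is taken out, 8 of 9 ZIP genes (58.9% of all tested genes) and 4 of 8 ZnT genes were lowest in D. The ZIP count stayed at 8 of 9 with library totals, DESeq2 size factors, and the removal of a length or a GC trend. This count was chosen after its values were seen, and no ZIP gene passed the edgeR fit.

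In summed TPM the ZIP genes had 253, 257 and 116 in A, B and D, and the ZnT genes 88.0, 86.0 and 71.6. The log2 ratio of ZIP to ZnT was 1.52, 1.58 and 0.69, a mean of 1.27 ± 0.50 (SD, n = 3) or 2.40-fold. It was positive in 3 of 3 libraries, and the two-sided exact sign-flip permutation test gave p = 0.25, the smallest that 3 libraries allow. Erythroid markers were highest in the same library, with 170, 196 and 1287 counts of Hbb-bs and 139, 123 and 907 counts of Hbb-bt in A, B and D, and both passed the edgeR fit (adjusted p 0.0217 and 0.0262). The mitochondrial share of counts was also highest in D, at 1.72%, 1.14% and 2.75% in A, B and D. The part of either in the low ZIP levels was not tested.

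**Figure D4:**
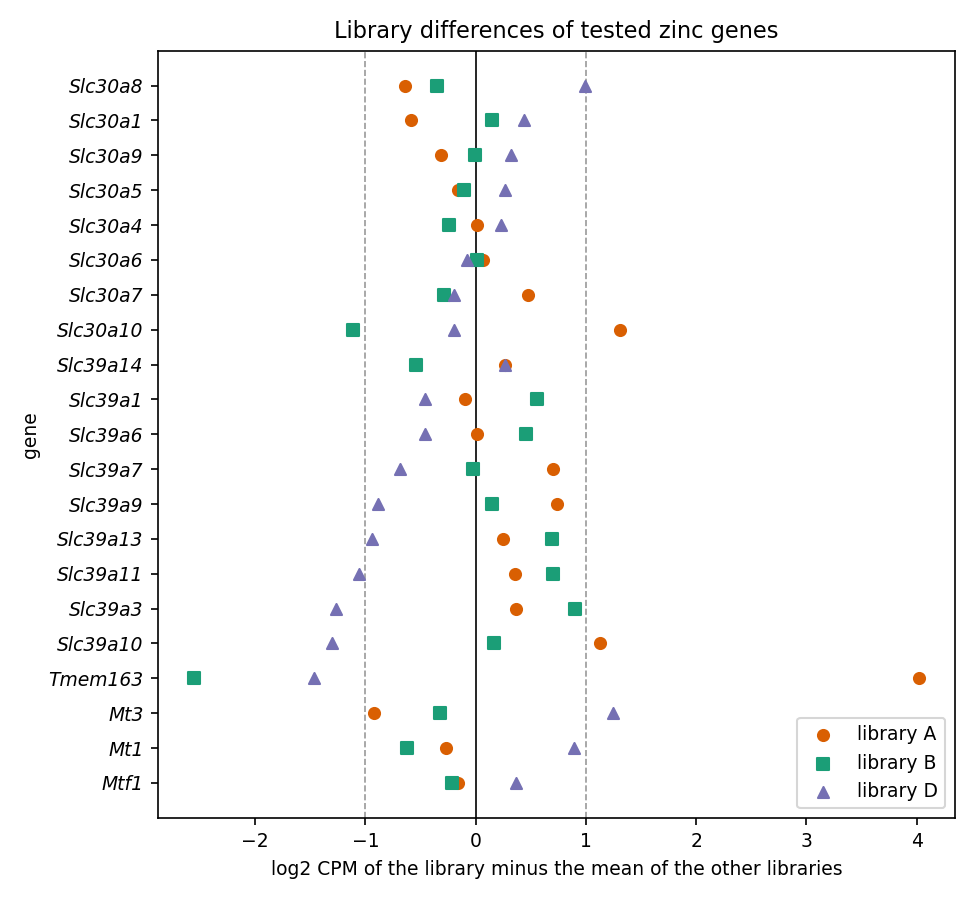
Log2 CPM of each library minus the mean of the other libraries for the 21 zinc genes in the fit, grouped as ZnT, ZIP, Tmem163, metallothioneins and Mtf1, with dashed lines at 2-fold. Triangles (D) lie left of the other symbols for 8 of 9 ZIP genes, and Tmem163 in A (circle) stands at 4.02.

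The remaining ZIP genes averaged under 1 TPM. Slc39a14, which also carries manganese and iron, had 69, 49 and 93 counts in A, B and D (0.709 ± 0.14 TPM) and was the only one of them with enough counts to be tested. Slc39a5, of intestine and pancreas, averaged 0.737 ± 0.25 TPM. Slc39a2, of keratinocytes, had 14, 2 and 12 counts, and its exons share 151 bases with the same-strand Mettl17 (762, 434 and 886 counts). Slc39a4, the intestinal importer mutated in human acrodermatitis enteropathica, had 5, 4 and 7 counts, and Slc39a8, which also carries manganese, had 3, 7 and 5. Slc39a12, an importer of the brain, had a single count, in D.

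Mt3, the metallothionein of the nervous system, was the most abundant zinc gene. It had 2242, 3093 and 8249 counts in A, B and D, or 550, 722 and 1185 TPM, and 1.33% of the tested genes had a mean at or above its own. It was highest in D by 1.25 log2, 1 member of 20 at 2-fold or more above in D (4.45% of all tested genes), with an edgeR adjusted p of 0.730. With the trend of library differences on gene length removed, the difference fell to 0.35: Mt3 has an exon length of 538 bases, and in D short genes were high generally (0.26 log2 at 1369 bases, the 10th percentile of length, and -0.11 at 8537 bases, the 90th). The summed TPM of the metallothioneins over that of the ZnT and ZIP genes was 0.71, 1.09 and 2.68 on the log2 scale in A, B and D. Its mean was 1.49 ± 1.04 (SD, n = 3, p = 0.25 in the exact sign-flip test), and 0.90 without library D. With the median of the members in place of the sum it was 0.16, above 0 in 1 of 3 libraries (p = 1.0 in the same exact test). On the CPM scale, which does not divide by gene length, the mean was -1.50, so the direction depends on the scale.

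Mt1 and Mt2, the inducible metallothioneins of most tissues, were low. Mt1 had 33, 29 and 78 counts, or 8.06, 6.74 and 11.2 TPM. Mt2 had 4, 4 and 9 counts (1.03 ± 0.19 TPM), and Mt4, of stratified epithelia, had 2, 1 and 1. Mt3 made up 98.3%, 98.9% and 98.9% of the summed metallothionein TPM in A, B and D. The log2 TPM ratio of Mt3 to Mt1 was 6.52 ± 0.37 (SD, n = 3), a 91.9-fold difference in level, with the same sign in 3 of 3 libraries and p = 0.25 in the exact test. Mtf1 had the narrowest range of the tested members on the TPM scale, at 5.14, 4.98 and 5.17 TPM (5.10 ± 0.10, SD, n = 3). Its exons share 721 bases with the opposite-strand 1110065P20Rik (113, 194 and 105 counts).

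The metallothionein genes lie in 1 cluster on chromosome 8 and differ widely in transcript level. The sequences before their annotated starts were searched for metal response elements and are shown. They are 120 bases of the plus strand up to the base before the RefSeq start (GRCm38.p6), at chr8:94178969-94179088 for Mt1, chr8:94172498-94172617 for Mt2, chr8:94152487-94152606 for Mt3 and chr8:94137084-94137203 for Mt4. Capitals mark matches to the core of the element, TGCACNC or TGCGCNC, on either strand, and no printed matches overlap. The printed bases hold 1 match each for Mt1, Mt2 and Mt4 and 0 for Mt3. Matches in the first bases of the GENCODE transcripts, which need not begin at the RefSeq start, are given below.
Mt1: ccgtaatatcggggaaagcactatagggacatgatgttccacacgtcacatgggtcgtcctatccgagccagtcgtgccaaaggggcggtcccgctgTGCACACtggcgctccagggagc
Mt2: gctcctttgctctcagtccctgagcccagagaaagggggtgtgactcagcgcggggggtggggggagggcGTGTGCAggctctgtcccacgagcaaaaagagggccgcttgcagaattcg
Mt3: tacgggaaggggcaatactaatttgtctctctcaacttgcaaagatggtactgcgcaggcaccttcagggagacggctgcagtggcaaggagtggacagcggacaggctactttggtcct
Mt4: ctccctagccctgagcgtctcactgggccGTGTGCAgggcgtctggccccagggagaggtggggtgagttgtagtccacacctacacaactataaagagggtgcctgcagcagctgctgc

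Over the 250 bases before the start, Mt1 had 1 match, Mt2 3, Mt3 0 and Mt4 1. Of 32851 RefSeq promoter windows, 21.4% held at least 1 match and 5.17% at least 2. Of the 31 windows of the 26 members that had any, 14 held a match (45.2%). In the first 150 bases of the GENCODE M21 transcripts, Mt1 had 4 matches, Mt2 3, Mt3 3 and Mt4 0. The Mt2 transcript begins at chr8:94172664, past the RefSeq start at chr8:94172618, and the bases between were not searched. The Mt1 and Mt4 transcripts begin before the RefSeq start, so their windows overlap those before it, and that of Mt3 begins at it. At least 3 were present in 0.388% of 58695 protein-coding transcripts of that length, and at least 4 in 0.0545%. In Mt1, Mt2 and Mt3 all of these matches lay before a TATAAA, which began at base 129, 90 and 107 of the transcripts. A TATAAA within those bases is held by 1.82% of transcripts. In Mt4 a TATAAA lies in the printed bases before the start. The windows of Mt4 are thus placed differently around TATAAA from those of Mt1, Mt2 and Mt3, and their counts are not like for like. Sites of 30 bases on the plus strand, with the matches in capitals, lie at chr8:94179086-94179115 for Mt1, chr8:94172672-94172701 for Mt2 and chr8:94152629-94152658 for Mt3.
Mt1: agctcTGCACTCcgcccgaaaagTGCGCTC
Mt2: gggcGTGTGCAggcggcgggggcGCGTGCA
Mt3: agcagTGCACACacacggagagcaggcgct

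The Mt1 and Mt2 sites hold 2 matches each and the Mt3 site 1. Mt2 and Mt3 had the same number of matches in the first 150 bases of their transcripts. In the window searched before the RefSeq start, Mt2 had 3 matches and Mt3 had 0. The transcript window of Mt2 begins past the RefSeq start and that of Mt3 at it, so their equal counts are not like for like. Mt3 stood at 819 ± 329 TPM and Mt2 at 1.03 ± 0.19 TPM (SD, n = 3). Whether the number of matches goes with transcript level was not tested. A match is a description of the letters and not evidence of binding.

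Genes of other metals were compared with the zinc genes. Of 24 such genes, 22 averaged 1 TPM or more, with the ferritin heavy chain gene Fth1 (3758 ± 531 TPM) and Sod1 (2661 ± 228 TPM), the copper and zinc superoxide dismutase, on top. All 24 were tested and 0 passed the edgeR fit (0.177% of all tested genes). In A, 4 of the 24 were 2-fold or more above the mean of B and D (3.18% of all tested genes): Atp7a, a copper transporter, Ireb2, an iron sensor, Tfrc, the transferrin receptor, and Cox17, a copper chaperone of mitochondria. Cox17 had 373, 101 and 280 counts in A, B and D, a difference of 1.38. Their unadjusted p ran from 0.0132 for Cox17 to 0.0454 for Tfrc, and their adjusted p from 0.617 to 0.794. In D, Slc41a1, a magnesium transporter gene, and Atp7a were 2-fold or more below the mean of A and B (6.78% of all tested genes), and Atox1, a copper chaperone, was 2-fold or more above it (4.45%).

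Genes of the P2X receptors and of mucolipin 1, named above as partners of TMEM163, were measured in the same fit with other vesicle genes. Of 7 P2X receptor genes, 6 were tested and 0 passed the edgeR fit (0.177% of all tested genes). P2rx3 was abundant at 432, 346 and 300 TPM in A, B and D, with a difference of 0.25 in A. P2rx4 had 9.09, 7.93 and 4.69 TPM, with a difference of 0.40 in A. Of 23 genes of vesicles and lysosomes (mucolipins, AP-3 and BLOC-1 subunits, vesicular glutamate transporters, Clcn3 and Tmem175), 20 were tested and 0 passed (0.177% of all tested genes). In A, 0 of the 20 were 2-fold or more above the mean of B and D (3.18%). Slc17a7, another vesicular glutamate transporter, was 2-fold or more below that mean (2.85%). It had 16, 41 and 40 counts in A, B and D, so few molecules were sampled. Mcoln1, the gene of mucolipin 1, had 17.4, 26.1 and 6.33 TPM in A, B and D. It was highest in B and lowest in D, with differences of 0.26, 1.15 and -1.41 (edgeR unadjusted p 0.0276, adjusted p 0.730). Also 2-fold or more below in D was Ap3b2 of AP-3 (6.78% of all tested genes). Bloc1s4 and Bloc1s1 of BLOC-1 were 2-fold or more above in D (4.45%), Bloc1s4 at only 13, 19 and 48 counts in A, B and D. Slc17a6, the vesicular glutamate transporter of these neurons, led that list at 178, 120 and 62.0 TPM, followed by Dtnbp1 of BLOC-1 at 117 ± 4.46 TPM.

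In library B, 0 of the 20 other members were 2-fold or more above the mean of A and D (3.61% of all tested genes), and Slc30a10 was the only one at 2-fold or more below (2.94%). The median difference in B was -0.01 over the members and -0.01 over all tested genes. Genes of other lists that passed the edgeR fit with their highest level in B were Col1a1, a collagen of mesenchyme (183, 1482 and 197 counts in A, B and D), and Junb, an immediate early gene (33, 218 and 34 counts). No zinc gene was called with them.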

How the data were processed

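RNA-seq libraries of 3 pools of sorted cells, in 1 group, were analysed. For each library the authors deposited counts of Ensembl genes with exon coordinates and lengths, made with Subread and featureCounts 1.4.5 on GRCm38.p2, per the submitters' processing notes; strand and multiple-match settings are not stated in the sources used. The deposited CPM and RPKM equalled the counts scaled to the library total, and to total and length, so both were recomputed from the counts. No molecular identifiers are described in the labels' protocols (10 ng RNA, SMARTer amplification, 12 PCR cycles), so limits from counts cover counting error only. Symbols came from GENCODE M21, which matched 40254 of 41388 identifiers, and promoter sequences from RefSeq. GRCm38.p2 and GRCm38.p6 share chromosome coordinates outside patches.

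TPM used counts and deposited lengths. Counts were filtered (filterByExpr, minimum count 10), normalised by TMM and fitted in edgeR 4.0.16 (R 4.3.3) with an intercept alone and trended negative binomial dispersion. Each gene's deviance was then referred to the chi-square distribution with 2 degrees of freedom as a test of fit, with Benjamini-Hochberg adjustment over all 13530 tested genes. The quasi-likelihood test needs 2 groups and could not be used. The p-values of this fit ask whether a gene spread more between pools than genes of a similar level. Spread that genes of that level share is not called, and any spread may be technical. Log2 CPM used a prior count of 2. The code was tested on simulated data. Ratios were taken within libraries and tested by exact sign flips; 5 of 8 chosen pairs had 10 counts of both genes in every library, and each adjusted p was 0.25, while Mt1/Mt2, Slc39a8/Slc39a14 and Tmem163/Slc30a3 had too few. A count of 0 was read as allowing 3. Figures used matplotlib 3.10.9 in Python 3.11.15 with numpy 2.4.6 and pandas 2.3.3.

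The members and all lists were chosen with earlier results of these data known. Described in full were members that averaged 10 TPM, were called, or differed 2-fold in a library; beyond them, the 5 genes nearest to Tmem163, its neighbours within 1 Mb, called genes of other lists and the highest of each list. Alternatives were other thresholds, thinning, CPM for TPM, other filters, normalisations and dispersions, DESeq2 1.42.0, removal of length and GC trends, and leaving out each library.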

Additional observations from a re-analysis of the deposited data

How the results depend on the processing

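Of 94 values under alternatives, 83 kept their direction or, for counts of genes, stayed near the count reported. Genes called as more variable between libraries than genes of their level numbered 24 in the report. There were 55 with the length trend removed, 4 by DESeq2 dispersion outliers, and from 2 to 27 when 1 library was left out. The count of other zinc genes among them was 0 under each alternative run. Zinc genes apart from Tmem163 at 2-fold or more above in A numbered 2, but 1 with the length trend removed, 1 with the GC trend removed and from 1 to 3 when B or D was left out; those at 2-fold or more below in A numbered 0, and from 0 to 2. With CPM in place of TPM, the log2 ratio of the metallothioneins to the transporters was -1.50 and that of Slc30a5 to Slc30a7 was -0.32, both reversed, since CPM does not divide by length. With the median of members in place of the sum the first ratio was 0.16. ZIP genes at 2-fold or more below in D numbered 3, and 5 with library totals only. The difference of Tmem163 in A stayed between 3.61 and 4.38. The GC trend and the counts of ZIP genes in D were chosen after seeing the data. No paired analysis was possible because the libraries form 1 group. With 3 libraries the exact tests cannot pass 0.05, and 9 members had too few counts to be tested for variation between libraries.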
